A study of Rattus norvegicus with 12 samples.

Results

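The genes described here encode the ErbB receptors, their neuregulin and EGF-type ligands and the feedback inhibitor of the receptors. The 10 members, Erbb2, Erbb3, Erbb4, Egfr, Nrg1, Hbegf, Areg, Ereg, Btc and Errfi1, were taken by their platform gene symbol from 14506 genes measured, and each had 1 probe set. They were measured in primary cultures of neonatal cardiac myocytes from Sprague Dawley rats on 12 Affymetrix whole-transcript arrays. There were 4 groups of 3 arrays: p300 siRNA cells (p300kd) after 8 h in 1 µM doxorubicin, p300kd cells at 0 h, non-silencing siRNA cells (NS) after 8 h in 1 µM doxorubicin, and NS cells at 0 h. Doxorubicin is an anthracycline that inhibits topoisomerase II and harms the heart, and p300, encoded by Ep300, is a lysine acetyltransferase. Every culture had been grown with bromodeoxyuridine against fibroblasts and had then been starved of serum in a medium with transferrin, vitamin B12 and insulin. The 0 h cultures were the only ones without the drug, so the drug and the 8 h of further culture cannot be told apart.

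The ErbB family consists of receptor tyrosine kinases that pair when a ligand binds. EGFR binds EGF, TGF-alpha, amphiregulin, betacellulin, epiregulin and HB-EGF; ERBB3 and ERBB4 bind neuregulins; ERBB2 binds no ligand of its own and is the preferred partner of the others. In the heart, neuregulin 1 comes mainly from the endothelium and acts on myocytes through ERBB4 paired with ERBB2. This signal is known for its part in trabeculation and in the survival of myocytes exposed to anthracyclines, and antibodies against ERBB2 are known to add to the cardiac toxicity of these drugs.

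Ep300 checked the siRNA. Its log2 intensity was 10.10, 9.64 and 9.80 in the p300kd arrays at 8 h, against 10.86, 10.72 and 10.72 in the NS arrays at 8 h. At 0 h it was 10.41, 10.02 and 10.05 in p300kd arrays, against 11.16, 11.01 and 11.14 in NS arrays. Averaged over both times Ep300 was at 52.4% of its NS level (log2 change -0.93, SE 0.0894, adjusted p = 0.00212, or 3.02e-07 with the replicate number as a block). The call was lost without replicate 2 (-0.88, adjusted p = 0.348) and without replicate 3 (-0.90, adjusted p = 0.168), where 0 of all genes passed. After the drug Ep300 was lower in 3 of 3 replicates in each kind of cell. Its log2 change was -0.31 in p300kd cells (adjusted p = 0.078, or 0.00249 with the block) and -0.34 in NS cells (adjusted p = 0.064, or 0.00153 with the block). The 10 markers of cardiac myocytes had mean log2 intensities of 11.54 (Ryr2) to 14.15 (Actc1), each brighter than at least 91.8% of genes. Markers of other cells ranged more widely, from 6.49 (Fap) to 13.63 (Col1a1) for fibroblasts, 9.64 (Rgs5) to 14.19 (Acta2) for smooth muscle, 6.78 (Cd163) to 11.91 (Lyz2) for macrophages and 6.25 (Emcn) to 12.52 (Eng) for endothelium, with no detection call to say which were above background. In these bulk samples fewer cells of a type and less RNA per cell cannot be told apart.

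After 8 h of doxorubicin Erbb2 fell and Ereg, the epiregulin gene, rose in both kinds of cell. Hbegf fell and Nrg1 rose in NS cells. They also did so in p300kd cells when the replicate number was a block (adjusted p = 0.00727 and 0.0241). Erbb2 was at 55.8% of its 0 h intensity in p300kd cells and at 55.9% in NS cells, and it was the one receptor of the 4 that passed the test in either kind of cell. Without the block, 1 of the 10 members rose (Ereg) and 1 fell (Erbb2) in p300kd cells. Of all genes tested 31.4% passed there, 13.9% higher and 17.5% lower. In NS cells, also without the block, 2 members rose (Ereg and Nrg1) and 2 fell (Erbb2 and Hbegf). Of all genes 27.5% passed there, 11.1% higher and 16.4% lower. The members' shares of 20% and 40% are thus near the share of all genes. The median change of the members was 0.11 in p300kd cells and 0.15 in NS cells, against 0.04 for all genes in each. With the replicate number as a block, 2 members rose and 2 fell in p300kd cells (45.8% of all genes passed, 22.9% higher and 22.8% lower), and 3 rose and 2 fell in NS cells (43.5% of all genes passed, 21.6% higher and 21.9% lower). The test was limma's moderated test over all genes, with a gene counted as changed at an adjusted p under 0.05.

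**Figure D1:**
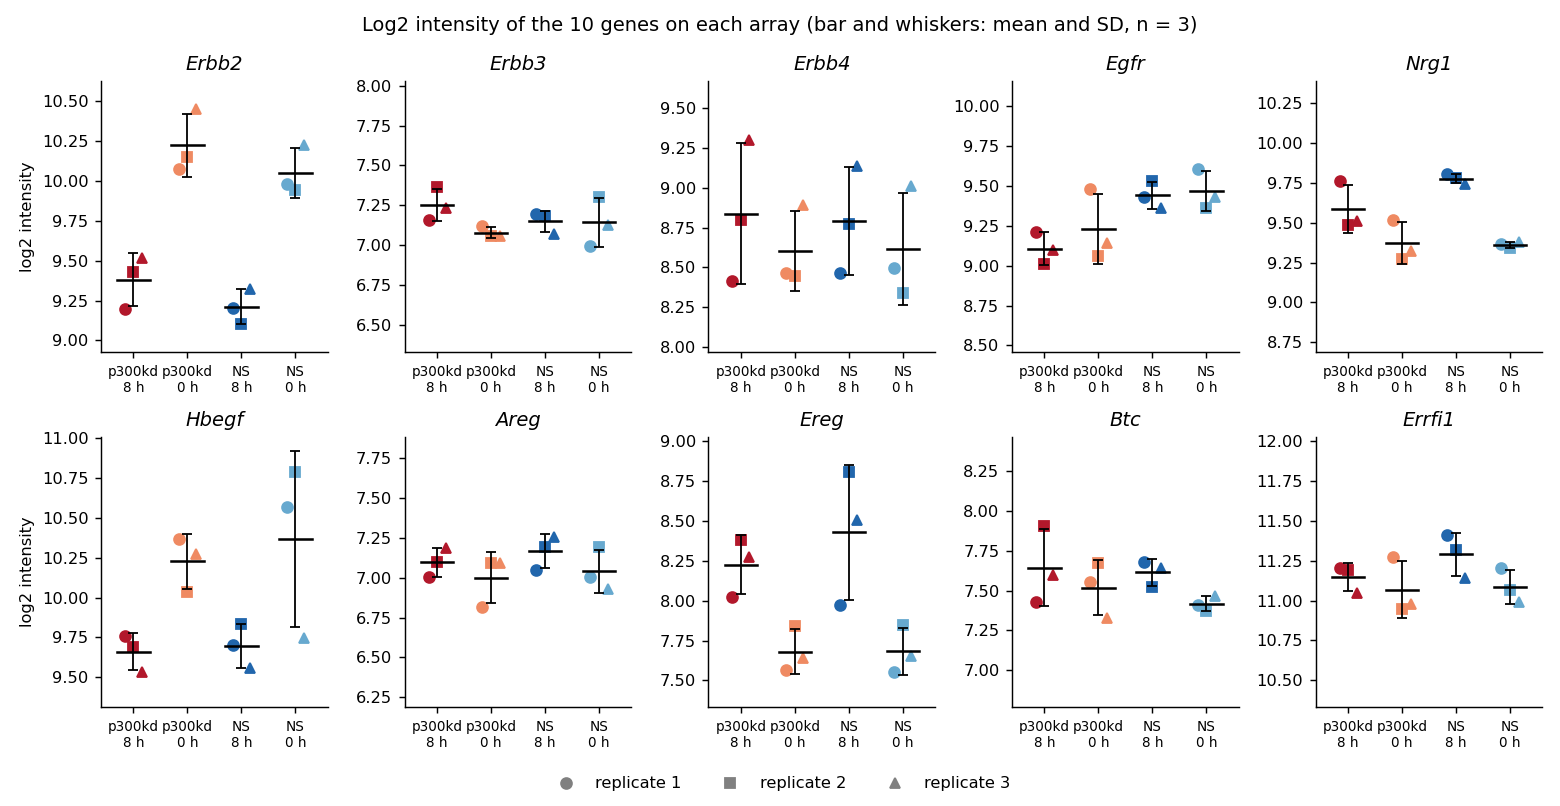
Log2 intensity (vertical axes, each spanning the same number of log2 units around its gene) of the 10 genes on every array, by siRNA and hours in doxorubicin; points are arrays, marked by replicate number, and bars with whiskers are the mean and SD (n = 3). The 8 h arrays of Erbb2 lie below all 0 h arrays, those of Ereg lie above them, and the 3 NS arrays of Hbegf at 0 h are spread from 9.74 to 10.79.

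Among the receptors, Erbb2 had log2 intensities of 9.20, 9.43 and 9.52 at 8 h and 10.07, 10.15 and 10.45 at 0 h in p300kd cells. In NS cells the values were 9.20, 9.11 and 9.32 at 8 h and 9.98, 9.94 and 10.23 at 0 h. No 8 h array reached any 0 h array in either kind of cell. The log2 change was -0.84 in both, with an SE of 0.123 and adjusted p = 2.39e-04 in p300kd cells and adjusted p = 2.95e-04 in NS cells. Within the replicates it was -0.88, -0.72 and -0.93 in p300kd cells and -0.78, -0.84 and -0.91 in NS cells. The fall kept its call under all 25 alternatives in both kinds of cell, with log2 changes between -0.92 and -0.73 in p300kd cells and between -0.90 and -0.74 in NS cells.

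The 250 bases before the annotated start of Erbb2, the receptor gene that fell, are shown with the motifs found in them in capitals. They come from RefSeq (build GRCr8, chr10:83907351-83907600, + strand) and read 5′ to 3′:

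Erbb2: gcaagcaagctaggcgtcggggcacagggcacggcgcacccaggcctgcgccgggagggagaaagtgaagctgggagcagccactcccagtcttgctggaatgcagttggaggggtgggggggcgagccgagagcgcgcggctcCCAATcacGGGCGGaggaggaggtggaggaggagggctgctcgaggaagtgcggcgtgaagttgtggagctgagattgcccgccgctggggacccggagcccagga

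The capitals are a CCAAT box and a GC box (GGGCGG). The 5 motifs searched on both strands were these and the TATA box (TATAAA), the AP-1 element (TGANTCA) and the cyclic AMP response element (TGACGTCA). No match overlapped another in a member. Of 33469 RefSeq windows of the same length 34% held the CCAAT box, 30.5% the GC box, 12.9% the TATA box, 6.34% the AP-1 element and 1.59% the cyclic AMP response element. Windows were matched for 7 of the 10 members (not for Erbb3, Nrg1 and Ereg), and 6 of the 7 held a GC box, 3 a CCAAT box, 2 a TATA box, 1 (Areg) the cyclic AMP response element and 0 the AP-1 element.

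Erbb4, the neuregulin receptor of the myocyte, had log2 intensities of 8.42, 8.80 and 9.30 at 8 h and 8.47, 8.45 and 8.89 at 0 h in p300kd cells. In NS cells it had 8.46, 8.78 and 9.14 at 8 h and 8.50, 8.34 and 9.01 at 0 h. The arrays of replicate 3 were the highest in every group, and the groups overlapped. Its log2 change was 0.23 in p300kd cells (95% interval -0.28 to 0.75, adjusted p = 0.488) and 0.17 in NS cells (-0.34 to 0.69, adjusted p = 0.633). The SE of Erbb4 in this fit, 0.238, was above that of any other member. With the replicate block it was 0.0984, below those of Hbegf (0.156) and Btc (0.108). The block gave adjusted p = 0.0654 in p300kd cells and adjusted p = 0.173 in NS cells.

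Erbb3, a receptor with little kinase activity that signals through its partners, had a log2 change of 0.18 in p300kd cells (95% interval -0.01 to 0.36, adjusted p = 0.135) and of 0.01 in NS cells (-0.18 to 0.19, adjusted p = 0.961). Erbb3 was dim, with a mean log2 intensity of 7.155 over the 12 arrays, above that of 29.3% of genes. Its p300kd arrays lay at 7.16, 7.36 and 7.24 at 8 h, all above the 7.12, 7.06 and 7.06 at 0 h, while its NS arrays overlapped. Groups that did not overlap were found for 43.2% of all genes in p300kd cells and for 41.3% in NS cells, and for 4 of the 10 members in each. Sox10, a marker of Schwann cells, which are known to hold ERBB3, had a mean log2 intensity of 8.00 over all arrays. Summed over the 5 measured Schwann and neural crest markers the intensity was 1276 to 1369 at 8 h and 1113 to 1174 at 0 h in p300kd cells, and 1291 to 1384 at 8 h and 1223 to 1324 at 0 h in NS cells; the part of these cells in the Erbb3 values was not tested.

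Egfr, a receptor of the EGF-type ligands, did not pass after the drug. Its log2 change was -0.12 in p300kd cells (95% interval -0.37 to 0.12, adjusted p = 0.443) and -0.03 in NS cells (-0.28 to 0.22, adjusted p = 0.878), and the sign in NS cells turned with quantile normalization (0.05) and with centring on the median over genes (0.07).

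**Figure D2:**
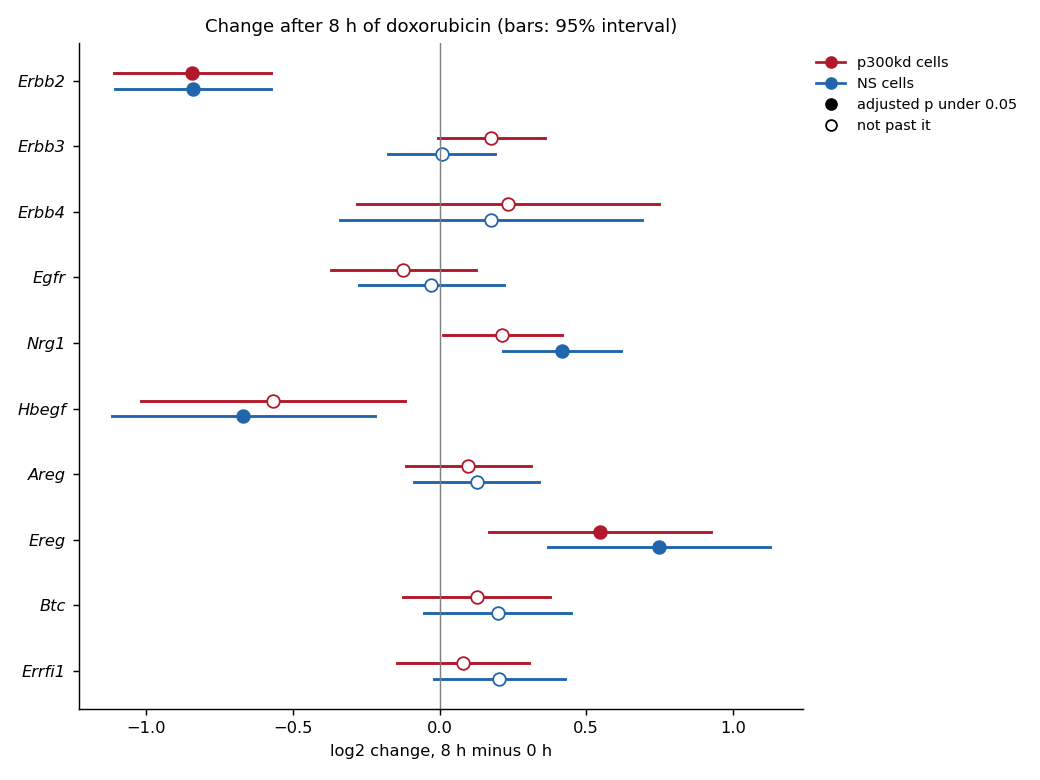
Log2 change of the 10 genes after 8 h of doxorubicin (horizontal axis, 8 h minus 0 h), in p300kd cells (upper of each pair) and NS cells (lower); bars are 95% intervals from the model and filled points passed at an adjusted p under 0.05. Erbb2 lies at -0.84 in both kinds of cell, and the intervals of Erbb4, from the fit without the replicate block, are the widest.

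Among the ligands, Ereg, which encodes epiregulin, rose in both kinds of cell. Its log2 intensity was 8.02, 8.38 and 8.28 at 8 h and 7.56, 7.84 and 7.64 at 0 h in p300kd cells. In NS cells it was 7.97, 8.81 and 8.51 at 8 h and 7.55, 7.85 and 7.65 at 0 h. All 8 h arrays lay above all 0 h arrays, and the highest single value was NS replicate 2 at 8 h. The rise was 1.46-fold in p300kd cells (log2 change 0.55, SE 0.175, adjusted p = 0.0304) and 1.68-fold in NS cells (0.75, SE 0.175, adjusted p = 0.00682).

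In the fit without the block, the call of Ereg depended on single arrays in p300kd cells. It was lost without p300kd replicate 1 at 0 h (adjusted p = 0.0938), without p300kd replicate 3 at 0 h (adjusted p = 0.0759), without p300kd replicate 2 at 8 h (adjusted p = 0.109) and without p300kd replicate 3 at 8 h (adjusted p = 0.0839). Without replicate 2 or 3 in all groups it was lost in p300kd cells (adjusted p = 0.0773 and 0.217) and in NS cells (adjusted p = 0.0549 and 0.114). Under all 25 alternatives the change stayed above 0, from 0.47 to 0.65 in p300kd cells and from 0.56 to 0.98 in NS cells. With the replicate block Ereg passed in p300kd cells (adjusted p = 3.05e-04) and in NS cells (adjusted p = 2.30e-05).

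Nrg1, which encodes neuregulin 1, had log2 intensities of 9.76, 9.49 and 9.51 at 8 h and 9.52, 9.27 and 9.32 at 0 h in p300kd cells. In NS cells it had 9.81, 9.78 and 9.75 at 8 h and 9.37, 9.34 and 9.38 at 0 h. The NS arrays at 8 h were well apart from those at 0 h, and the p300kd groups overlapped through replicate 1. Nrg1 rose 1.34-fold in NS cells (log2 change 0.42, SE 0.0929, adjusted p = 0.00511, or 2.68e-04 with the replicate block). Its call there was lost without replicate 2 (adjusted p = 0.0799) and without replicate 3 (adjusted p = 0.0657). In p300kd cells its log2 change was 0.21 (SE 0.0929, adjusted p = 0.0985). It passed there with the replicate block (adjusted p = 0.0241), without p300kd replicate 1 at 0 h (adjusted p = 0.0450), with quantile normalization (0.29, adjusted p = 0.0353) and with centring on the median over genes (0.32, adjusted p = 0.0164). The probe set does not part the isoforms of neuregulin 1.

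Endothelial markers, whose cells are a known source of neuregulin 1, had a median log2 change of -0.13 in p300kd cells and -0.08 in NS cells, with 0 higher and 2 lower of 9 measured in each. Of all genes 13.9% were higher and 17.5% lower in p300kd cells, and 11.1% were higher and 16.4% lower in NS cells. With the block 0 were higher and 4 lower in p300kd cells, against 22.9% higher and 22.8% lower of all genes. In NS cells 1 was higher and 4 lower with the block, against 21.6% higher and 21.9% lower of all genes. Their summed intensity was 6563 to 7870 at 8 h and 7903 to 8946 at 0 h in p300kd cells, and 7398 to 7940 at 8 h and 7849 to 8666 at 0 h in NS cells. Eng was by far the brightest of these markers, at a mean log2 intensity of 12.52, and so weighs most in the sums, which overlapped between 8 h and 0 h in NS cells. The part of endothelial cells in the Nrg1 values was not tested.

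Hbegf, which encodes the heparin-binding EGF-like factor, had log2 intensities of 9.76, 9.69 and 9.53 at 8 h and 10.37, 10.04 and 10.28 at 0 h in p300kd cells. In NS cells it had 9.70, 9.83 and 9.56 at 8 h and 10.57, 10.79 and 9.74 at 0 h. The p300kd groups did not overlap; in NS cells replicate 3 at 0 h lay below replicate 2 at 8 h. Hbegf fell to 62.9% of its 0 h level in NS cells (log2 change -0.67, SE 0.207, adjusted p = 0.0293, or 0.00265 with the replicate block). In p300kd cells it was at 67.5% (-0.57, SE 0.207, adjusted p = 0.0534), and passed there with the replicate block (adjusted p = 0.00727).

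The calls of Hbegf changed with single arrays of both times, and its NS arrays at 0 h spread over a log2 unit. In NS cells the call was lost without NS replicate 1 or 2 at 0 h (adjusted p = 0.107 and 0.126), without NS replicate 1 or 3 at 8 h (adjusted p = 0.0604 and 0.0963), without replicate 1 or 2 in all groups (adjusted p = 0.162 and 0.205) and in a fit without the p300kd arrays (adjusted p = 0.0597). In p300kd cells a call was gained without NS replicate 2 or 3 at 0 h (adjusted p = 0.0309 and 0.00303) and in a fit of the p300kd arrays alone (adjusted p = 0.00782). The change lay below 0 in 3 of 3 replicates in each kind of cell, from -0.74 to -0.35 in p300kd cells and from -0.96 to -0.19 in NS cells.

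The window of 250 bases before the start of Hbegf, the other member that fell, is shown for comparison with that of Erbb2 (RefSeq, GRCr8, chr18:28390221-28390470, - strand, read 5′ to 3′ along the gene). The capitals mark a CCAAT box on the opposite strand, and no GC box as spelled above was found in this window:

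Hbegf: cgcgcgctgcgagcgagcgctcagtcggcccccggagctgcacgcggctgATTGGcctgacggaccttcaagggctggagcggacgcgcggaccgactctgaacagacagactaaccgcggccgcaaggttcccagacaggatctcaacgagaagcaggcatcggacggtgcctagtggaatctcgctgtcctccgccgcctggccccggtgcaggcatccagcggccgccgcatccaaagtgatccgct

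Areg, which encodes amphiregulin, and Btc, which encodes betacellulin, did not pass. Both were dim, with mean log2 intensities of 7.08 and 7.55 over the 12 arrays, above those of 28.2% and 35.2% of genes. The log2 change of Areg was 0.10 in p300kd cells (95% interval -0.12 to 0.31) and 0.13 in NS cells (-0.09 to 0.34). That of Btc was 0.13 in p300kd cells (-0.13 to 0.38) and 0.20 in NS cells (-0.05 to 0.45). The 3 NS arrays of Btc at 8 h (7.68, 7.52 and 7.64) all lay above those at 0 h (7.41, 7.38 and 7.47), and its p300kd groups overlapped.

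Errfi1, which encodes MIG6, an inhibitor that binds active ErbB kinases and is induced by their signal, had a log2 change of 0.08 in p300kd cells (95% interval -0.15 to 0.30, adjusted p = 0.601) and of 0.20 in NS cells (-0.02 to 0.43, adjusted p = 0.168). Its NS values were 11.41, 11.32 and 11.14 at 8 h and 11.20, 11.07 and 10.99 at 0 h. They were higher at 8 h in each replicate although the groups overlapped, and the replicate block gave adjusted p = 0.0125 in NS cells and adjusted p = 0.313 in p300kd cells.

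The drug responses of p300kd and NS cells were compared as a difference for each member. None of the 10 passed with limma (0 of all genes passed, and 0 members had an unadjusted p under 0.05). The difference of the log2 changes, p300kd minus NS, was -0.00 for Erbb2 (95% interval -0.38 to 0.37), -0.20 for Nrg1 (-0.49 to 0.08), -0.20 for Ereg (-0.74 to 0.34) and 0.10 for Hbegf (-0.53 to 0.74). For Nrg1 it lay below 0 in 3 of 3 replicates (-0.20, -0.23 and -0.18), with adjusted p = 1.00, or 0.989 with the block. The call of Nrg1 in NS cells and its absence in p300kd cells therefore do not show a difference between them.

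With the p300 siRNA, 0 of the 10 members passed at 8 h or at 0 h, or as the mean of both times. Of all genes 0.0483% passed at 8 h, 0.0207% at 0 h and 1.25% for the mean. The groups of 0 members failed to overlap at 0 h, as did those of 13% of all genes. At an unadjusted p under 0.05 limma gave 1 member at 8 h, 1 for the mean and 0 at 0 h, and that member was Egfr. The share of all genes at this unadjusted cut was not counted. In the fit without the block, averaged over both times, the 95% interval was -0.02 to 0.36 for Erbb2 and -0.35 to 0.38 for Erbb4. It was -0.23 to 0.05 for Nrg1 and -0.41 to 0.23 for Hbegf. With the block the SE of this mean was smaller, at 0.0524 against 0.0869 for Erbb2 and 0.0696 against 0.168 for Erbb4. For Nrg1 it was 0.0512 against 0.0657, and for Hbegf 0.110 against 0.146.

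Egfr had log2 intensities of 9.21, 9.01 and 9.10 in p300kd arrays at 8 h, against 9.43, 9.53 and 9.36 in NS arrays at 8 h. At 0 h it had 9.48, 9.06 and 9.15 in p300kd arrays, against 9.61, 9.37 and 9.43 in NS arrays. The groups did not overlap at 8 h, as for 11.1% of all genes, and overlapped at 0 h through p300kd replicate 1. Averaged over both times Egfr was at 81.9% of its NS level (log2 change -0.29, SE 0.0806, adjusted p = 0.121), with a lower value in 6 of 6 comparisons within a replicate. It passed with the replicate block averaged over both times (adjusted p = 0.00741, where 9.51% of all genes passed, 6.29% lower) and at 8 h (-0.34, adjusted p = 0.0483, where 3.14% of all genes passed, 2.37% lower), but not at 8 h with the replicate as a random effect (adjusted p = 0.105). For the mean it also passed with the random effect (adjusted p = 0.0185), without p300kd replicate 1 at 0 h (-0.35, adjusted p = 0.0306) and without replicate 1 in all groups (-0.35, adjusted p = 0.0362).

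Some markers of other cells were lower beside Egfr, and others were not. For the mean of both times 1.25% of all genes passed, and with the block 9.51% passed, 6.29% lower. The 10 fibroblast markers had a median log2 difference of -0.17 averaged over both times, with 0 passing, or 5 lower with the block; their summed intensity was 32230 to 37400 in p300kd arrays and 36520 to 39730 in NS arrays at 8 h, and 30980 to 37310 in p300kd arrays and 36490 to 39930 in NS arrays at 0 h. The 9 macrophage and leukocyte markers had a median of -0.28, with 2 lower, or 7 lower with the block, and summed to 6912 to 8957 in p300kd arrays and 8511 to 11200 in NS arrays at 8 h, and to 5994 to 9194 in p300kd arrays and 8854 to 10880 in NS arrays at 0 h. The 5 mesothelial markers had a median of 0.02, with 2 lower (Krt19 at -0.55 and Upk1b at -0.48, named after their values were seen), and summed to 2558 to 2680 in p300kd arrays and 2968 to 3170 in NS arrays at 8 h, and to 2191 to 2546 in p300kd arrays and 2690 to 2796 in NS arrays at 0 h. The medians of smooth muscle, Schwann and endothelial markers were -0.01 (1 lower of 9, or 1 higher and 3 lower with the block), -0.04 (0 of 5) and -0.06 (0 of 9, or 1 lower with the block), and the 10 myocyte markers had a median of -0.04, with 0 passing. The part of these cells in the Egfr values was not tested.

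**Figure D3:**
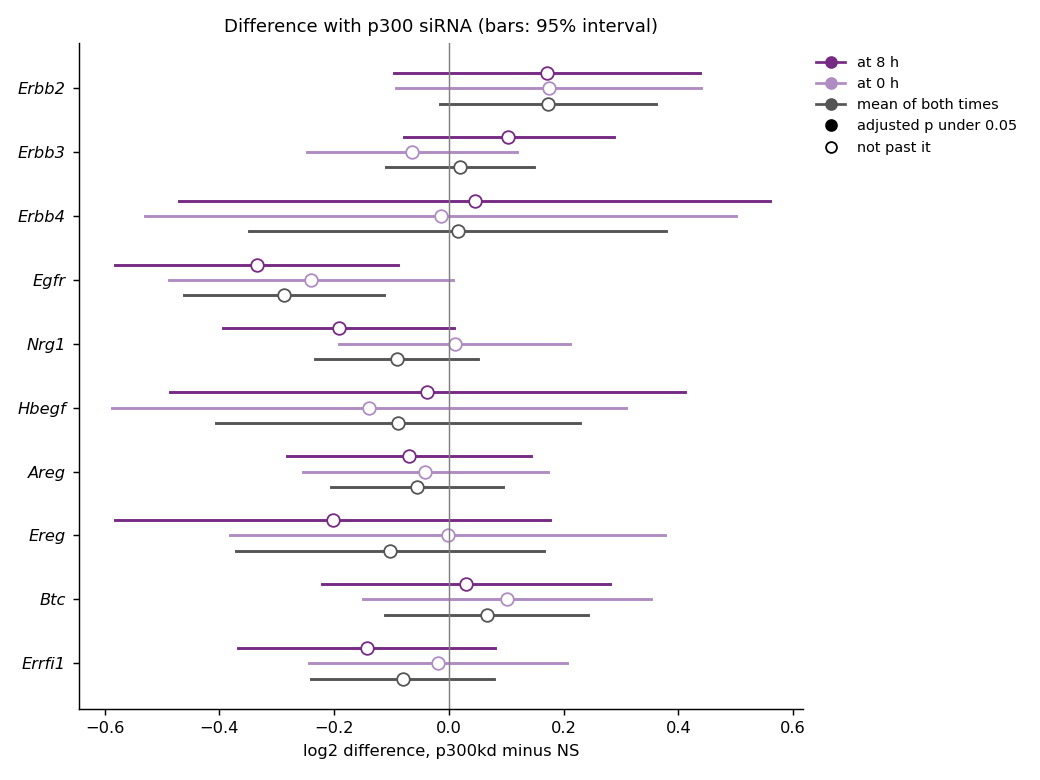
Log2 difference with the p300 siRNA (horizontal axis, p300kd minus NS) for the 10 genes at 8 h, at 0 h and as the mean of the 2 times, from top to bottom within each gene; bars are 95% intervals and open points did not pass at an adjusted p under 0.05. No point is filled, and Egfr at 8 h and averaged over both times (-0.34 and -0.29) has an interval below 0.

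Other genes of the pathway were taken from 5 lists. Their counts are to be read against the 13.9% higher and 17.5% lower of all genes in p300kd cells. In NS cells these shares were 11.1% higher and 16.4% lower, and the median change was 0.04 in each kind of cell. Counts with the block are to be read against 22.9% higher and 22.8% lower in p300kd cells. In NS cells the shares with the block were 21.6% higher and 21.9% lower. Of 18 measured negative regulators of the receptors and of RAS, 3 rose and 8 fell in p300kd cells and 3 rose and 8 fell in NS cells, with medians of -0.07 and -0.06; with the block 4 rose and 8 fell in each. Spry1 and Spry2, Sprouty proteins that restrain RAS-ERK signalling, fell: Spry1 had a log2 change of -1.14 in p300kd cells (adjusted p = 4.12e-07) and -0.89 in NS cells (adjusted p = 2.88e-06), and Spry2 of -0.94 (adjusted p = 1.06e-04) and -1.05 (adjusted p = 5.51e-05). Spry4, of the same family, rose by 0.52 in p300kd cells and 0.56 in NS cells (adjusted p = 5.89e-04 and 4.64e-04). Rnf41, which encodes the ubiquitin ligase NRDP1 that acts on ERBB3, fell (log2 change -0.74 in p300kd cells, adjusted p = 1.55e-05 and -0.66 in NS cells, adjusted p = 4.06e-05). Stub1, which encodes the ligase CHIP that acts on ERBB2, rose by 0.20 in p300kd cells and 0.29 in NS cells (adjusted p = 0.0235 and 0.00372). Rab5a, of early endosomes, rose in p300kd cells (0.42, adjusted p = 0.0143) and was at 0.24 in NS cells (adjusted p = 0.152, or 0.0362 with the block and 0.0594 with the random effect). Socs4, of the SOCS family, was at 0.29 in p300kd cells (adjusted p = 0.111, or 0.00941 with the block and 0.0257 with the random effect) and rose in NS cells (0.43, adjusted p = 0.0299). The call of Stub1 in p300kd cells was lost under 9 of 25 alternatives and that in NS cells under 2, that of Socs4 under 6 and that of Rab5a under 2.

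Of 13 measured adaptor and RAS-ERK genes, 1 rose and 5 fell in p300kd cells and 0 rose and 4 fell in NS cells, with medians of -0.08 and -0.05. With the block 1 rose and 6 fell in p300kd cells, and 2 rose and 5 fell in NS cells. The docking proteins Gab2 (-1.17 in p300kd cells and -1.09 in NS cells, adjusted p = 2.68e-06 and 5.43e-06) and Gab1 (-0.60 and -0.69, adjusted p = 3.89e-04 and 1.70e-04) fell, and so did Sos1, a RAS exchange factor (-0.63 and -0.60, adjusted p = 4.82e-04 and 8.60e-04). These 3 genes kept their calls under all 25 alternatives. Grb2, the adaptor that links receptors to SOS, rose in p300kd cells (0.29, adjusted p = 0.0358; lost under 8 of 25 alternatives) and was at 0.18 in NS cells (adjusted p = 0.195, or 0.0162 with the block and 0.0514 with the random effect).

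Of 14 measured PI3K-AKT and SRC-FAK genes, 1 rose and 5 fell in p300kd cells and 2 rose and 4 fell in NS cells, with medians of -0.07 in each; with the block 1 rose and 5 fell in p300kd cells, and 2 rose and 6 fell in NS cells. The PI3K subunit genes Pik3r3 (-0.48 in p300kd cells and -0.78 in NS cells, adjusted p = 0.0185 and 0.00122) and Pik3cb (-0.52 and -0.58, adjusted p = 0.00522 and 0.00301) fell, as did the kinase gene Gsk3b (-0.27 and -0.31, adjusted p = 0.0147 and 0.00702). Foxo3, a transcription factor held in check by AKT, rose (0.27 and 0.22, adjusted p = 0.0114 and 0.0364). The kinase gene Src was at 0.11 in p300kd cells (adjusted p = 0.260) and rose in NS cells (0.21, adjusted p = 0.0442). The NS calls of Foxo3 and Src were lost under 10 and 14 of 25 alternatives, and the p300kd calls of Pik3r3, Gsk3b, Foxo3 and Pik3cb under 5, 3, 2 and 1, and the NS call of Gsk3b under 2.

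Of 7 measured genes of ligand sheddases and their carriers, 3 rose and 1 fell in p300kd cells and 4 rose and 0 fell in NS cells, with medians of 0.14 and 0.20; with the block 4 rose and 1 fell in p300kd cells, and 4 rose and 0 fell in NS cells. The metalloprotease genes Adam9 (0.46 in p300kd cells and 0.34 in NS cells, adjusted p = 4.16e-04 and 0.00382) and Adam15 (0.37 and 0.38, adjusted p = 0.00485 and 0.00483) rose, as did Nrdc, which encodes nardilysin (0.25 and 0.20, adjusted p = 0.0116 and 0.0379; the call in NS cells was lost under 12 of 25 alternatives and that in p300kd cells under 3). The p300kd call of Adam15 was lost under 2 alternatives, and the NS calls of Adam9 and Adam15 under 1 each. Bace1, whose protease cleaves neuregulin 1, was at 0.14 in p300kd cells (adjusted p = 0.179, or 0.0393 with the block and 0.0683 with the random effect) and rose in NS cells (0.22, adjusted p = 0.0400; lost under 12 of 25). Rhbdf1, which encodes the ADAM17 carrier iRhom1, fell in p300kd cells (-0.32, adjusted p = 0.0155, lost under 7 of 25) and was at -0.11 in NS cells (adjusted p = 0.399). Of 3 further ligand genes measured, Tgfa was at 0.26 in p300kd cells (adjusted p = 0.116, or 0.0113 with the block) and rose in NS cells (0.48, adjusted p = 0.00886; lost without replicate 2). Nrg2 rose in p300kd cells (0.33, adjusted p = 0.0479; lost under 15 of 25) and was at 0.27 in NS cells (adjusted p = 0.111, or 0.0223 with the block), and Egf passed in neither. With limma 0 of these 55 genes passed in a comparison of p300kd with NS cells. An unadjusted p under 0.05 was found for 3 at 8 h, 1 at 0 h and 8 for the mean of both. The share of all genes at that cut was not counted, so no conclusion is drawn from these counts. With the replicate block 2 sheddase genes were lower for the mean, where 6.29% of all genes were lower. They were Adam17 (-0.27) and Rhbdf2 (-0.20), named after their values were seen.

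**Figure D4:**
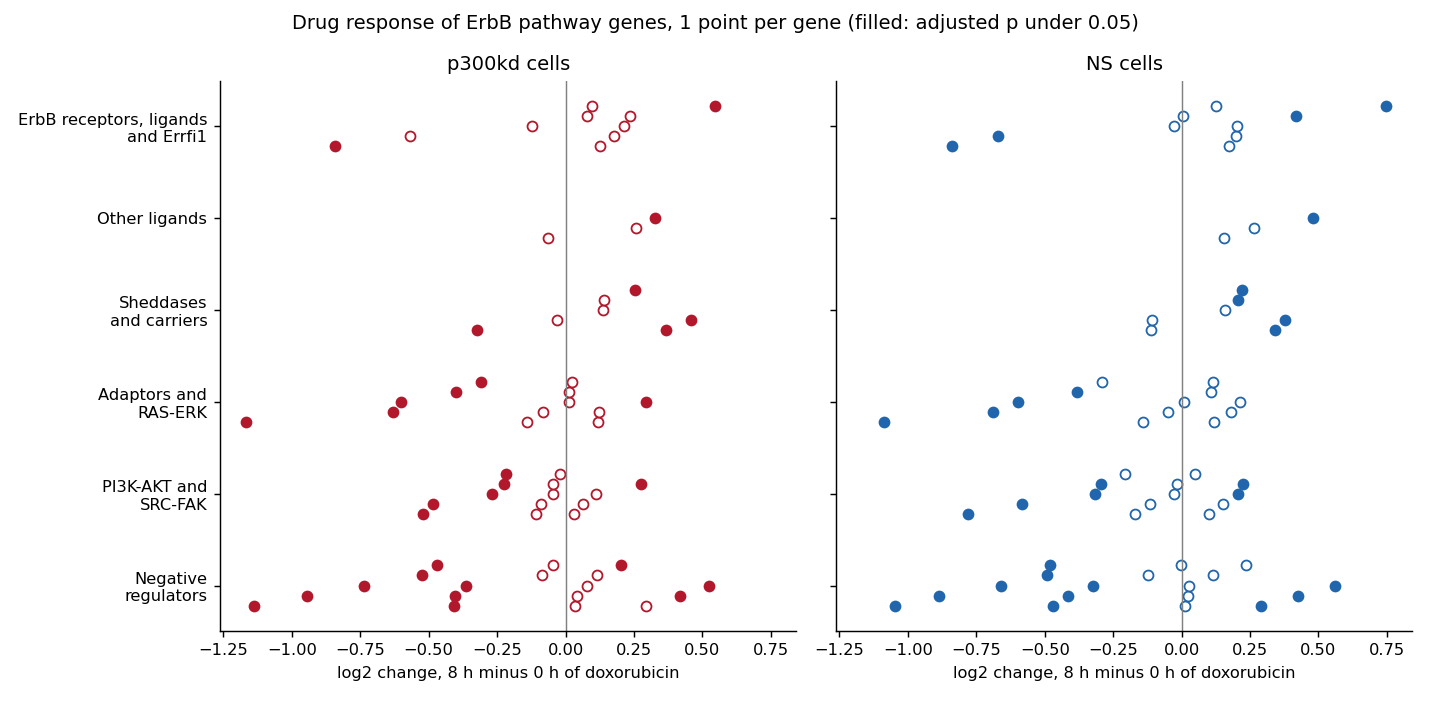
Log2 change after 8 h of doxorubicin (horizontal axis) of the 10 members and of 5 lists of other ErbB pathway genes, in p300kd cells (left) and NS cells (right); each point is a gene, spread vertically within its list for legibility, and filled points passed at an adjusted p under 0.05. The largest falls are those of Gab2 and Spry1 in p300kd cells (-1.17 and -1.14) and of Gab2 and Spry2 in NS cells (-1.09 and -1.05), and Ereg has the largest rise in both panels.

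The 3 members whose group means spanned the widest range were Erbb2 (1.01 log2 units), Ereg (0.75) and Hbegf (0.71). Over the 12 arrays the genes with the level most like that of Erbb2 were Gtf2i (Pearson r = 0.991), Cbx6 (0.988) and Llgl2 (0.985). Those most like Ereg were Emc4 (0.960), Fam20b (0.953) and Npbwr1 (0.952), and those most like Hbegf were F2rl1 (0.968), Tgm1 (0.938) and Tnfrsf12a (0.937). These coefficients are a description of 12 arrays that share their groups and replicates, and each set was picked as the highest among all genes.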

How the data were processed

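The authors made the deposited intensity values with Affymetrix Expression Console 1.1 and RMA, per the submitters' processing notes. Their range, 8.05 to 25315, showed a linear scale, so they were turned into log2 before any fit. The array medians of log2 intensity over 29214 probe sets were 7.73 to 7.80. The platform annotation gave 1 symbol for 15310 probe sets, several for 323 and none for 13581; the brightest probe set per gene was kept, which left 14506 genes, with no filter on level. R 4.3.3 and limma 3.58.1 gave the fit of the 4 group means, with 8 residual degrees of freedom left and the prior variance following the level (trend). Its p-values took both sides and the Benjamini-Hochberg adjustment across the 14506 genes. The fit was tested on simulated data with independent arrays and no replicate effect, so that test does not bear on the use of the block. Figures used matplotlib 3.10.9. Genome build and further settings are not given in the sources used here.

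Groups and replicate numbers came from the titles, and the design text states 3 experiments. Deviations from the group means of arrays with 1 number correlated in all 18 pairs (median 0.504, 0.172 to 0.689). Other pairs had a median of -0.271, but deviations within a group sum to 0, so this value is not separate evidence. Given the correlation within a number, the replicate block is printed beside the values of members and named pathway genes whose call it changes. It is also printed for Ep300 and for some calls that it kept. The members and lists were chosen with earlier results of these data known. Named were the 10 members, Ep300, and per list up to 3 called rises and 3 called falls in each drug comparison and averaged over both times for the siRNA; for the 3 members with the widest span of group means, the 3 most correlated genes. Alternatives were the block (fixed or random), only the groups compared, dim genes left out (lowest 25%), other scalings between arrays, the mean of a gene's probe sets, no trend, an offset of 16, and leaving out arrays or replicates. The number of arrays limits the precision.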

Additional observations from a re-analysis of the deposited data

How the results depend on the processing

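The fall of Erbb2 kept its call and direction in both kinds of cell under all 25 alternatives. Of 47 single-gene results that passed, 0 turned direction under any alternative; they kept the call in 1015 of 1175 refits and lost it in 160. The same alternatives for the pathway genes outside the members, and centring each array on its median over genes, were added after seeing the data. The number of members that passed in p300kd cells after the drug, 2 in the model used, was 4 with the replicate block, 4 with the replicate as a random effect and 4 with centring on the median over genes, and 1 to 3 with arrays or replicates left out. In NS cells it was 4, and 1 to 4 with arrays or replicates left out (1 without replicate 2, 2 without replicate 3). For the p300 siRNA at 8 h it was 1 with the replicate block, in place of 0. Averaged over both times it was 1 with the replicate block, 1 with the random effect and 0 to 1 with arrays or replicates left out. In each case the member was Egfr. The block changed no call of a member other than those printed with it.

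Centring on the median over genes moved the median change of all genes to 0.14 in each kind of cell, against 0.04, and the split of calls to 3800 higher and 1832 lower in NS cells, against 1617 and 2375, and to 4344 and 1991 in p300kd cells, against 2017 and 2543. Relative to it Erbb2 was at -0.74 in both kinds of cell, Hbegf at -0.46 in p300kd cells (adjusted p = 0.0798) and -0.57 in NS cells, Ereg at 0.65 and 0.85 and Nrg1 at 0.32 and 0.52, all in the direction given. Erbb3 passed in p300kd cells (0.28, adjusted p = 0.0155) and Errfi1 in NS cells (0.31, adjusted p = 0.0321) with this scaling. With the block, 6317 genes passed in NS cells, against 3992. For the siRNA the block gave 455 genes at 8 h, 390 at 0 h and 1380 for the mean, and the random effect 92, 125 and 816, against 7, 3 and 181. Fits of only the groups compared gave 0 at 8 h and 0 at 0 h, and leaving out dim genes gave 4 at 8 h. With arrays or replicates left out, 2269 to 4847 genes passed in p300kd cells and 1782 to 4266 in NS cells after the drug, and 0 to 17 at 8 h, 0 to 20 at 0 h and 0 to 371 for the mean of the siRNA.

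Signs that turned belonged to results that did not pass. In NS cells the drug change of Erbb3 was -0.0374 with quantile normalization, and that of Egfr 0.0469 with quantile normalization and 0.0737 with centring over genes. The 0 h siRNA difference of Ereg was 0.0036 with centring over genes. With arrays or replicates left out, the drug change ranged from -0.088 to 0.086 for Erbb3 and -0.126 to 0.0481 for Egfr in NS cells, and from -0.21 to 0.0017 for Egfr, -0.0035 to 0.25 for Btc and -0.0015 to 0.18 for Errfi1 in p300kd cells. The siRNA difference at 0 h ranged from -0.158 to 0.0252 for Erbb3, -0.16 to 0.18 for Erbb4, -0.0644 to 0.0596 for Nrg1, -0.48 to 0.17 for Hbegf, -0.142 to 0.051 for Areg, -0.0813 to 0.079 for Ereg and -0.122 to 0.0409 for Errfi1. At 8 h it ranged from -0.19 to 0.26 for Erbb4, -0.108 to 0.0292 for Hbegf and -0.15 to 0.17 for Btc. Averaged over both times it ranged from -0.017 to 0.0588 for Erbb3, -0.10 to 0.12 for Erbb4, -0.259 to 0.0904 for Hbegf and -0.0719 to 0.144 for Btc. The difference between drug responses ranged from -0.0923 to 0.11 for Erbb2, -0.17 to 0.27 for Erbb4, -0.178 to 0.0304 for Egfr, -0.15 to 0.43 for Hbegf, -0.121 to 0.0716 for Areg, -0.20 to 0.09 for Btc and -0.10 to 0.15 for Ep300. The cause of these changes was not tested. The values used here hold no detection call, so signal over background could not be set for any member.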
